A study of Mus musculus with 2 samples.

Results

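The gene described here is Tal1, also called Scl, and the measurement is the binding of its own protein product to the chromatin around it. Tal1 was taken as named, 1 gene of 49997 in the RefSeq gene table used, with the 150 kb of mouse chromosome 4 that surround it (chr4:114660000-114810000 in build mm9). Scl protein was immunoprecipitated once from formaldehyde-fixed HPC-7 cells, a mouse haematopoietic progenitor line derived from embryonic stem cells and grown with stem cell factor, and the recovered DNA was split 3 ways before it was sequenced. The portions of lanes 7 and 8, the latter loaded with 2 times as much DNA, were read at one site and form sample 1 (mm9). The portion read at another site is sample 2 (mm8). All portions form 1 group with no other genotype, treatment or time, and no control library was used here, so reads were compared with those of the genome and of the surrounding sequence. The portions share 1 immunoprecipitation, so every interval and p-value covers counting error only and the agreement between samples is technical. PCR copies without molecular identifiers are not independent molecules.

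Scl belongs to the basic helix-loop-helix family of transcription factors and is required to form blood cells. It pairs with a class I partner such as E2A on an E-box (CANNTG), and in blood progenitors and red cell precursors it forms a complex in which LMO2 and LDB1 bridge it to a GATA factor bound close by. Transcription of Tal1 itself starts at more than one promoter and is driven by separate enhancers spread over the neighbouring genes, among them a stem cell enhancer at +19 kb and an erythroid enhancer, the +40 element, named for their distance in kb from the start.

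Scl reads were concentrated at a single place in the locus, downstream of the gene and beyond its neighbour Pdzk1ip1, and no window was called at the Tal1 promoters. The region spanned chr4:114768301-114768750 in sample 1 (mm9) and chr4:114593651-114594050 in sample 2 (mm8). Its middle lay 39.5 kb downstream of the upstream Tal1 start and 38.1 kb downstream of the other start, close to the distance in the name of the +40 element. The best 200 bp held 55 distinct reads in sample 1 and 27 in sample 2, which was 23.7-fold and 22.9-fold above the surrounding 10 kb. The sequence of the region is shown first, because it carries an arrangement of an E-box and a GATA motif at the spacing described for Scl complexes.

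The sequence was assembled from 28 reads of sample 2, the sample whose file gives bases, with mismatches in 4 of the reads set to the genome base that the aligner recorded. At every position the reads then gave the same base. A first run covered chr4:114593682-114593861 (mm8, plus strand, 180 bases) and a second run covered chr4:114593869-114593961 (93 bases), with 7 bases between them that no read covered. Capitals mark E-boxes and GATA motifs on either strand.
Region, first run: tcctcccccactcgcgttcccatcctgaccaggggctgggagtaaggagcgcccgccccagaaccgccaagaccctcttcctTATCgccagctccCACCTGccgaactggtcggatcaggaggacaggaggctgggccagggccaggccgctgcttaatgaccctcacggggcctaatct
Region, second run: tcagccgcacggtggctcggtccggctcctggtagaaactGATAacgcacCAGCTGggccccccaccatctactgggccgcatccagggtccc

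Read on the minus strand, the first run holds an E-box followed by GATA after 9 bp, within the 7 to 9 bp searched for as the composite site of Scl complexes.
Composite, minus strand: CAGGTGGGAGCTGGCGATA
It lay 55 to 73 bp to the left of the middle of the region (chr4:114593764-114593782, mm8). The base before this GATA is neither A nor T, so it does not match the fuller site of GATA factors, which is GATA with A or T before it and A or G after it. The second run holds such a fuller site, TGATAA, 71 to 76 bp to the right of the middle, and a CAGCTG E-box 82 to 87 bp to the right, with 6 bp between GATA and the E-box. That pair has the opposite order from the composite and a shorter spacing. The CACCTG E-box was covered by 5 reads and its GATA by 2, the TGATAA by 3 and the CAGCTG by 2. No TGCGGT or TGTGGT, the core of RUNX sites, was found in either run. GGAA, the core of ETS factor sites, was found 2 times, both in the first run and on the minus strand. A match of letters is a description and does not show that a factor was bound there.

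The same search was made within 100 bp of the summit of the other 776 regions called in sample 2, where a median of 143 of 200 bases were covered by reads, against 193 at Tal1. The composite was found in 55 of them (7.09%). With the fuller GATA site in place of GATA it was found in 44 (5.67%), and at Tal1 in 0 positions. An E-box of any kind was found in 55.7% of the other regions, CACCTG in 10.4%, CAGCTG in 16.2% and GATA in 56.8%. The fuller GATA site was found in 42.3% of them, GGAA in 78.9% and TGCGGT or TGTGGT in 23.3%. At Tal1 that narrower span holds the composite with its CACCTG and GATA, and 1 GGAA. In sample 2 the summit, the centre of the windows with the most reads, was at 114593800 (mm8), left of the middle at 114593837. The TGATAA and the CAGCTG of the second run, although within 100 bp of the middle, therefore lie outside that span.

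The positions of genes relative to these reads rest on sequence matches, since no annotation of mm8 or mm9 was used. RefSeq (GRCm38.p6) gives 2 promoter sequences for Tal1, whose starts are 1385 bp apart. A single read of sample 2, at chr4:114555537-114555568 (mm8), matched the promoter of the downstream start with 0 mismatches and is shown because it sets the distances.
Tal1 downstream promoter, matched bases: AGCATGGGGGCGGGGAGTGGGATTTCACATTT
The downstream start is therefore at 114555743 in mm8. The ends of both samples coincided at 24 positions of the locus when sample 2 was moved by 174673 bp, 20 of them outside the enriched region. Outside it, the next best offset gave 9, and 0.585 would be expected over the locus from evenly spread ends. This puts the downstream start at 114730416 and the upstream start, by the RefSeq spacing, at 114729031 in mm9. Reads that matched the promoters of Cmpk1, Stil, Pdzk1ip1 and Cyp4x1os gave the same shift between the RefSeq table and mm8.

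By that order of genes, the region is intergenic. Its middle lay 24.1 kb beyond the end of Tal1 and 7.2 kb after the start of Pdzk1ip1, a gene for a small membrane protein, also called MAP17, which reads in the same direction as Tal1. It was 2.0 kb past the end of Pdzk1ip1 and 10.4 kb before the nearest end of Cyp4x1, a cytochrome P450 gene.

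**Figure D1:**
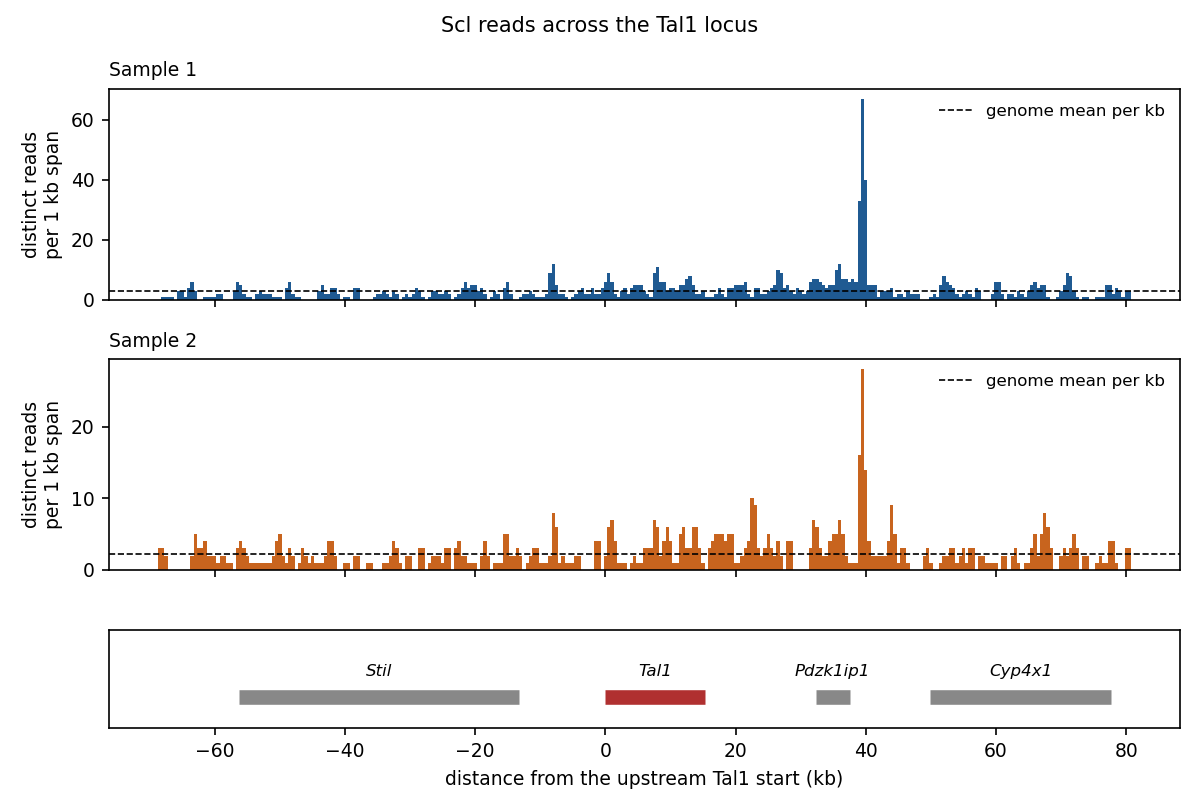
Distinct reads per 1 kb span (spans overlap by 500 bp) against distance in kb from the upstream Tal1 start, for sample 1 (top) and sample 2 (middle), with the genome mean as a dashed line and genes as bars below. The highest span lies at 39.5 kb in both samples, with 67 and 28 reads, to the right of Pdzk1ip1.

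In sample 1 the 55 reads of the best window (exact Poisson 95% interval 41.4 to 71.6) stood on a surrounding mean of 2.32 reads per 200 bp. The enrichment of 23.7-fold had a counting interval of 17.9 to 30.9, with p adjusted over all 52836441 windows of the genome = 8.56e-49 by the one-sided exact Poisson test. In sample 2 the 27 reads (17.8 to 39.3) stood on a mean of 1.18, an enrichment of 22.9-fold (15.1 to 33.3, adjusted p = 4.78e-22 over 52613117 windows, same exact test). The folds differed by less than their counting error. The surrounding 10 kb includes the region itself. Without the 1 kb on each side, an alternative added after the data had been seen, the enrichment was 51.2-fold (38.5 to 66.6) in sample 1 and 40-fold (26.4 to 58.2) in sample 2.

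Of the 2997 windows that tile the locus in steps of 50 bp, 6 passed in sample 1 and 5 in sample 2, all within this region. A window passed with an adjusted p under 0.01 and at least 5-fold enrichment. Over the genome 0.0079% of windows passed in sample 1 and 0.00498% in sample 2. The regions called in the samples overlapped by 400 bp once sample 2 had been placed by the offset, so 1 region was called in each sample and it was the same one. At a looser threshold, an adjusted p under 0.05 and at least 3-fold, which 0.015% of windows passed in sample 1 and 0.00675% in sample 2, the number of regions in the locus stayed at 1 in each.

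Plus-strand read ends lay mostly to the left and minus-strand ends to the right, as the 2 ends of fragments that share a bound site do. In sample 1, 27 of 31 plus ends within 300 bp lay left of the middle and 27 of 35 minus ends lay right of it. In sample 2 these were 15 of 15 and 10 of 13. The middle was set from the medians of these same ends. A majority on these sides therefore follows once the plus median lies left of the minus median. Between the medians of plus and minus ends there were 154 bp (sample 1) and 136 bp (sample 2), against medians of 120.5 and 118 bp over the other called regions. The middles of the samples, each taken from the medians of its own ends, were 10 bp apart. The signal was confined to a short stretch: from 300 to 1000 bp on both sides there were 6 reads in sample 1 and 3 in sample 2, where 4.15 and 3.06 would be expected at the genome mean.

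**Figure D2:**
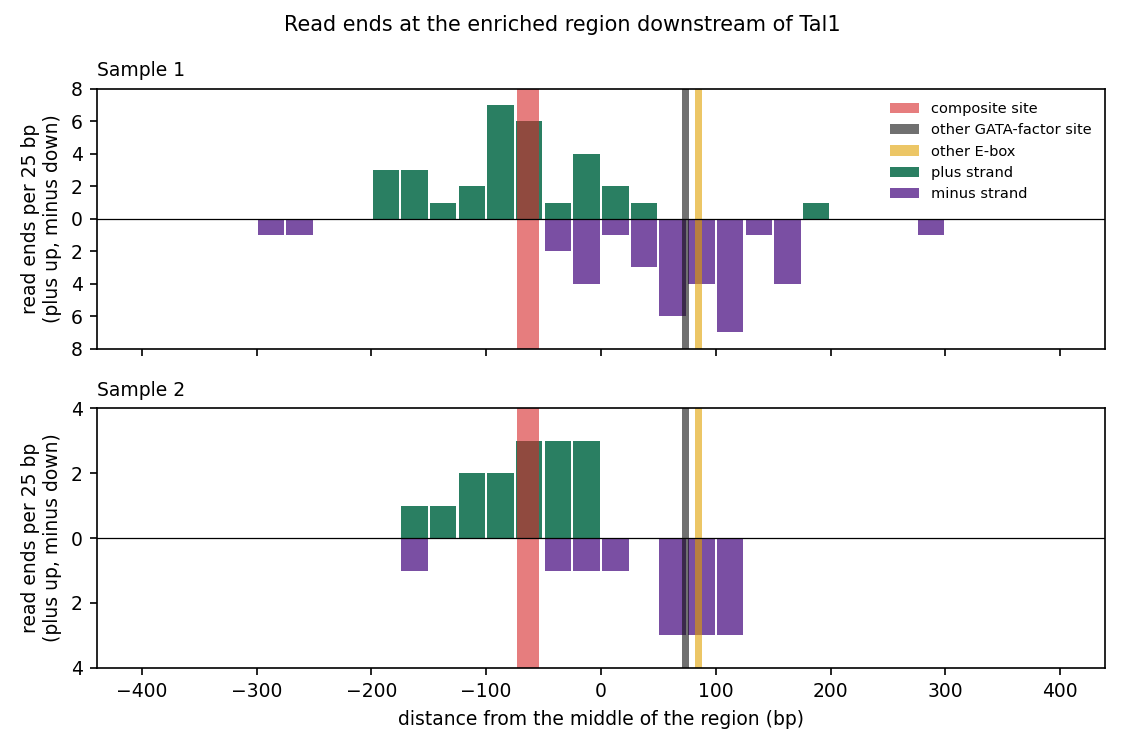
Read ends per 25 bp against distance in bp from the middle of the region, plus strand upward and minus strand downward, for sample 1 (top) and sample 2 (bottom). Vertical bands mark the composite site and the separate GATA-factor site and E-box. Plus ends peak to the left and minus ends to the right, with the composite 55 to 73 bp left of the middle and the other sites 71 to 87 bp right of it.

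Each sequenced portion showed the region. Within 300 bp of its middle lane 7 held 25 distinct reads, lane 8 held 45 and sample 2 held 28. Lane 7 alone called it with 22 reads in the best window (23.9-fold, adjusted p = 3.62e-17, exact Poisson test), where 0.0014% of windows passed. Lane 8 alone called it with 37 reads (24.7-fold, adjusted p = 2.81e-32, exact Poisson test), where 0.00495% passed. Few of the reads were the same fragments counted again: 4 ends were found in both lanes and 4 in both samples. Without the 24 ends of the locus that both samples share, the best window kept 51 reads in sample 1 and 23 in sample 2 and passed in each (adjusted p = 1.51e-44 and 7.38e-18, exact Poisson test).

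Per 1000000 distinct reads the region had 15.3 reads in lane 7 (exact Poisson 95% interval 9.89 to 22.6), 11.02 in lane 8 (8.04 to 14.7) and 6.75 in sample 2 (4.48 to 9.75). The lanes did not differ beyond counting error. Of the reads inside the region 37.3% came from lane 7 (exact binomial 95% interval 25.8 to 49.99), against 30.8% over all 1502 regions of sample 1 (two-sided exact binomial p = 0.289, adjusted p = 1.0 over all regions, 0.133% of which passed an adjusted p under 0.05). Sample 1 contributed 66 of the 94 reads of both samples, 70.2% (exact binomial 95% interval 59.9 to 79.2), and 57.6% of all distinct reads. The reads of sample 1 were 45 bp long and those of sample 2 mostly 32 bp, and the aligners differed. Their part in this difference was not tested.

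**Figure D3:**
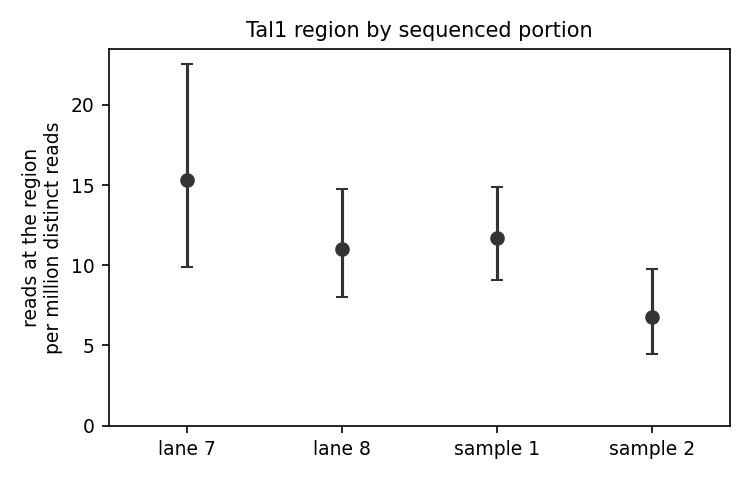
Reads within 300 bp of the middle of the region per 1000000 distinct reads, for lane 7, lane 8, their union (sample 1) and sample 2, with exact Poisson 95% intervals. The value of sample 2, 6.75, is the lowest, and its interval overlaps that of lane 8 but not that of lane 7.

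Among all called regions the Tal1 region was one of the stronger ones. It ranked 38 of 1502 by reads in the best window in sample 1 and 81 of 777 in sample 2, and 2 of 73 and 3 of 34 on chromosome 4. The other regions had a median of 10 and 11 reads. The order is loose, since in sample 1 34 other regions, and in sample 2 134, had a number of reads inside the counting interval of the Tal1 region. Many of the regions with more reads had plus and minus ends close together. Among the 1194 and 553 regions whose ends were at least 0.5 fragment lengths apart, it ranked 16 and 33. By fold it ranked 77 and 107, and its enrichment compares with medians of 12.9-fold and 16.0-fold over the other regions. These ranks describe the region and were not tested.

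**Figure D4:**
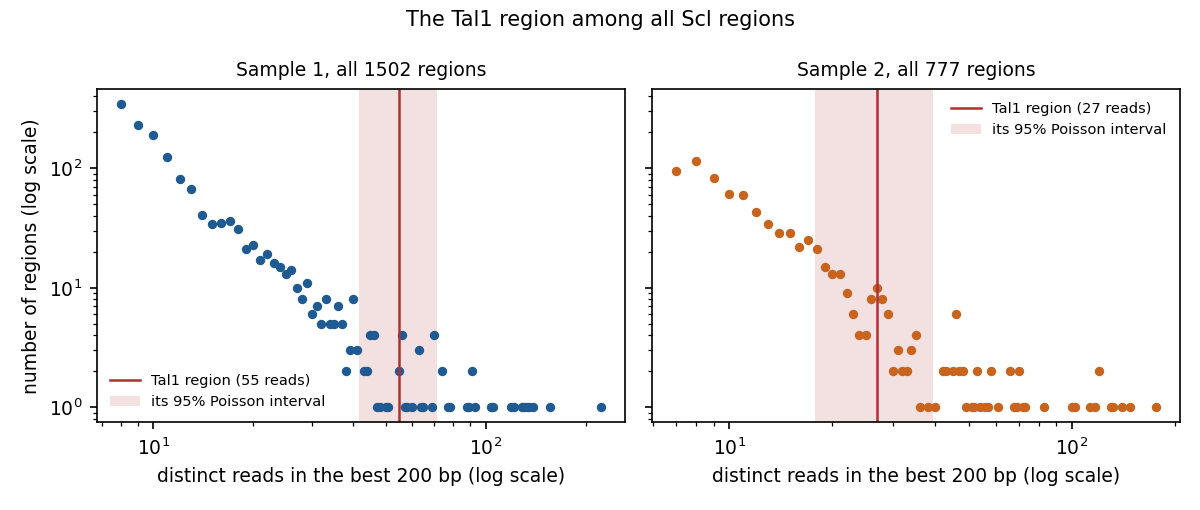
Number of called regions (log scale) against the distinct reads in their best 200 bp (log scale) in sample 1 (left) and sample 2 (right). The red line marks the Tal1 region at 55 and 27 reads and the band its exact Poisson 95% interval, to the right of most regions in each sample.

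No window was called at the Tal1 promoters in either sample. Within 500 bp of the upstream start there were 6 reads in sample 1 (exact Poisson 95% interval 2.20 to 13.1), and 2 in sample 2 (0.242 to 7.22), against genome means of 2.96 and 2.18 per kb. At the downstream start there were 2 reads (0.242 to 7.22) and 5 (1.62 to 11.7). No window there passed (adjusted p = 1.0 for the best one in each sample at each start, exact Poisson test). With so few reads expected, a weak enrichment was not detectable at this depth. The 1 kb span just downstream of the upstream start, noted after the values had been seen (chr4:114729000-114729999, mm9), held 9 reads in sample 1 (4.12 to 17.1) and 6 in sample 2 (2.20 to 13.1), intervals that lay above the genome means. They did not lie above the density of the gene itself, 4.57 reads per kb in sample 1 and 3.26 in sample 2. The upstream promoter (RefSeq, GRCm38.p6, 250 bases before the start and 50 after) holds 4 GATA motifs on either strand and 1 E-box, and no composite was found in it. In the downstream promoter 0 E-boxes and 0 GATA motifs were found. Of the 32851 promoters of 300 bp in the RefSeq table, 57.9% hold GATA, 72.3% an E-box and 1.66% the composite. These 300 bp had 2 reads in sample 1 and 0 in sample 2 at the upstream start, and 0 and 1 at the downstream start. The exact Poisson 95% interval of a count of 0 reaches 3.69 reads.

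The known elements of the locus were then read off at fixed distances from the upstream start, with 500 bp on each side. The -4 kb element, an enhancer of endothelium and blood, had 4 reads in sample 1 and 2 in sample 2. The stem cell enhancer at +19 kb had 4 (1.09 to 10.2) and 5 (1.62 to 11.7). At +3 kb there were 4 and 1 reads, and at +7 kb 1 and 4. At +1 kb there were 6 and 7, and at +23 kb 4 (1.09 to 10.2) and 9 (4.12 to 17.1). The interval of sample 2 lay above its genome mean of 2.18 at +1 and +23 kb, and that of sample 1 did not lie above its own at either. At +1 kb, inside the gene, the lower limit of sample 2 was 2.81, below its 3.26 reads per kb over the gene. At +23 kb its lower limit of 4.12 was above the 3.28 reads per kb between the gene end and the enriched region. No window at these 6 distances or at the start passed in either sample (adjusted p = 1.0 for each with at least 2 reads, exact Poisson test).

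At +40 kb the span had 34 reads in sample 1 (23.5 to 47.5) and 12 in sample 2 (6.20 to 21.0), although it takes in only the right part of the called region. Measured from the downstream start, the span at +40 kb lay beyond the region and had 6 and 2 reads. At the other distances from that start the counts ran from 2 to 8 in sample 1 and from 0 to 5 in sample 2, with no window passed. The choice of start thus decides whether the element list meets the region, while the region itself was called without that list. The list was chosen with earlier results of these data known, so its match with the region is not independent support.

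**Figure D5:**
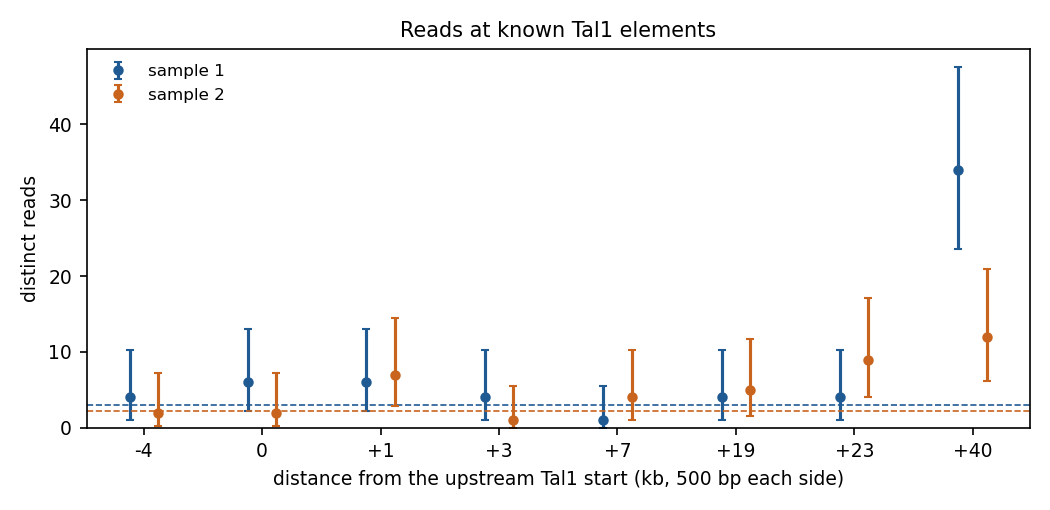
Distinct reads within 500 bp of fixed distances (kb) from the upstream Tal1 start, in sample 1 (blue) and sample 2 (orange), with exact Poisson 95% intervals and the genome means per kb as dashed lines. At +40 kb the counts of 34 and 12 stand above all other distances, where they run from 1 to 9.

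Away from the region, the window with the smallest p in each part of the locus held few reads, and so did the same 200 bp in the other sample. Inside the gene the window with the smallest p of sample 1 held 5 reads 7.6 kb from the upstream start (chr4:114736551-114736750, mm9, 5.21-fold, unadjusted p = 0.00308, adjusted p = 0.855, exact Poisson test), and sample 2 had 1 read there. Downstream of the gene it held 5 reads at 26.7 kb (6.41-fold, adjusted p = 0.793, exact test), again with 1 read in sample 2. Upstream of the gene 10 windows with 4 reads tied (adjusted p = 0.855, exact test). In sample 2 the corresponding windows held 4 reads each, at -7.8, 13.6 and 28.3 kb (adjusted p = 0.932, 1.0 and 1.0, exact test), where sample 1 had 1, 2 and 2 reads. Over 1 kb the samples were closer. The span around the 7.6 kb window (chr4:114736500-114737499, mm9) held 11 reads in sample 1 (5.49 to 19.7) and 6 in sample 2 (2.20 to 13.1). Both intervals lay above the genome means, and only that of sample 1 lay above the density of the gene. The -7.8 kb window lies in a span described below, with 12 reads in sample 1 and 8 in sample 2.

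A second window of sample 1, 3.8 kb before the region, depended on the background used. It held 7 reads at chr4:114764601-114764800 (mm9; exact Poisson 95% interval 2.81 to 14.4), 35.7 kb from the upstream start and 3.4 kb after the start of Pdzk1ip1. Against the surrounding 10 kb, which takes in the enriched region, this was 2.85-fold (adjusted p = 1.0, exact Poisson test). Against the surrounding 50 kb it was 7-fold (adjusted p = 0.164, exact test), and against the genome average alone 11.8-fold (adjusted p = 0.00610, exact test), the only one of these that passed. Over the whole genome, the genome average alone called 10082 regions in sample 1, against 1502 with the surrounding 10 kb and 2049 with 50 kb. Sample 2 had 1 read in the same 200 bp. The 1 kb span around it (chr4:114764500-114765499, mm9) held 12 reads in sample 1 (6.20 to 21.0) and 7 in sample 2 (2.81 to 14.4), both above the genome means by their intervals. The stretch between the gene end and the enriched region had 4.58 and 3.28 reads per kb, and only the interval of sample 1 lay above this.

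Over 1 kb spans, and chosen after the values had been seen, the most reads of both samples summed, away from the region, lay 8.0 kb before the upstream start, between Stil and Tal1. By the RefSeq spacing this is inside Gm52674, a long non-coding RNA gene that runs from -9.1 to -0.8 kb. This span had 12 reads in sample 1 (chr4:114720500-114721499, mm9, 6.20 to 21.0) and 8 in sample 2 (chr4:114545827-114546826, mm8, 3.45 to 15.8). For a span picked by its high count, both intervals lay above the genome means. They also lay above the density upstream of the gene, 2.06 reads per kb in sample 1 and 1.71 in sample 2. The span around the second window had nearly as many in sum, 19 against 20. In sample 1 alone these spans tied, and in sample 2 alone the most lay at 22.5 kb, with 10 reads against 1 in sample 1. On chromosome 4, 0.452% and 0.858% of such spans had at least as many reads. No 200 bp window in it passed.

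Reads were also spread unevenly at the scale of the whole locus. Upstream of Tal1, over 69.0 kb that include Stil, a gene of centriole duplication, there were 2.06 reads per kb in sample 1 (1.73 to 2.42) and 1.71 in sample 2 (1.41 to 2.05). Over the gene itself there were 4.57 (3.56 to 5.77) and 3.26 (2.42 to 4.30), and over the 23.1 kb from its end to 1 kb before the enriched region 4.58 (3.75 to 5.54) and 3.28 (2.59 to 4.11). In sample 1 both stretches were at 1.54 times the genome mean, and in sample 2 they were at 1.49 and 1.503 times, and their intervals did not overlap those of the upstream part in either sample. Beyond the region the density was 2.57 (2.10 to 3.11) and 1.98 (1.57 to 2.46). Of spans of chromosome 4 as long as the gene, 10.7% and 9.48% held at least as many reads as the gene. No window in these stretches passed against the surrounding 10 kb, and without a control library this density could not be compared with that of unselected chromatin. Over all 150 kb the locus held 494 and 355 distinct reads, 1.11 and 1.08 times the genome mean, of which 66 and 28 lay at the enriched region. Without them it was at 0.968 and 1.003 times the mean. That mean rests on an effective genome length of 1.9e9 bp. Per kb from its first to its last read, unmappable sequence included, chromosome 4 held 2.17 and 1.59 reads, and against these the rest of the locus, at 2.87 (2.60 to 3.15) and 2.19 (1.96 to 2.44) per kb, was higher in both samples.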

How the data were processed

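Per the labels, chromatin fixed in 0.4% formaldehyde and sheared to 200 to 500 bp was sequenced on Illumina Genome Analyzers. Per the deposited text, sample 1 was aligned with the Solexa software to mm9 and sample 2 with Eland to mm8. No aligner version is given in the sources used here, nor whether sample 1 was limited to uniquely placed reads. The deposited sample 1 file gives an alignment score per read (43 to 45), from which mismatches were taken. The deposited sample 2 file gives, per read, counts of genome matches with 0, 1 and 2 errors. Files of reads with several or no matches hold no positions and were not used.

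Sample 1 had 5938819 aligned reads (5632119 distinct on the chromosomes) and sample 2 had 4296527 (4150610). Only 1 read per start and strand was kept, and reads were moved by 0.5 times the fragment length (115 and 124 bp, the maximum of the strand cross-correlation smoothed over 11 bp, since the single-base maxima lay at 99 and 120 bp). Over the whole genome, 200 bp windows placed every 50 bp had their reads tested (exact Poisson, one-sided). The expected number came from the surrounding 10 kb or, where higher, from the genome average over 1.9e9 bp. A window needed a Benjamini-Hochberg adjusted p under 0.01 and a fold of at least 5. Windows within 200 bp were merged, with at least 20% of reads on each strand. The caller was tested on simulated reads.

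Named items were every region called in the locus, known elements at fixed distances, and windows that were not called. The uncalled windows were those with the smallest p upstream of, inside and downstream of the gene. The locus and these lists were chosen with earlier results of these data known. RefSeq promoters were matched to reads with at most 2 mismatches. The plan took 1 transcription start, RefSeq gives 2, and distances from both are given. Python 3.11.15, numpy 2.4.6, pandas 2.3.3 and scipy 1.17.1 were used. Alternatives are listed at the end.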

Additional observations from a re-analysis of the deposited data

How the results depend on the processing

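In sample 1 the number of regions called in the locus was 1 under 12 of 13 alternatives and 2 against the genome average alone, and in sample 2 it was 1 under all 10. Against the genome average alone, sample 1 had 10082 regions over the genome, against 1502 in the main setting. The alternatives were all reads counted, windows of 400 or 100 bp, other backgrounds, reads not moved, looser and stricter thresholds, reads without mismatches, each lane alone, sample 1 thinned to the depth of sample 2 (22.5-fold) and, added after the data had been seen, read ends shared by both samples left out. The mean enrichment of both samples at the region, 23.3-fold in the main setting, ranged there from 22.9-fold to 23.7-fold with either sample left out. With other backgrounds the samples were further apart. The mean was 51.4-fold against 50 kb (57.8 in sample 1, 45 in sample 2) and 77.3-fold against the genome average (92.8 and 61.8). It was 45.6-fold against 10 kb without the region and 12.7-fold in windows of 400 bp. It was 24.1-fold with reads without mismatches, 16.8-fold with reads not moved and 22.4-fold without shared ends. The density of the locus was 1.097 times the genome mean (1.08 to 1.11 with either sample left out) and 0.986 times without the region. The counts of E-box, GATA and composite sites at Tal1 were the same within 50 bp of the sample 2 summit and with at least 2 reads per base. That summit, at 114593800 (mm8), lies left of the middle of the region. No paired analysis was possible because there is 1 group. At this depth an average window held 0.593 and 0.437 reads, which limits what could be called: a site with few reads may be missed.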
